A study of Mus musculus with 19 samples.

Results

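The microglial genes described here are 8 of the 41388 genes in the count files: Cx3cr1, P2ry12, Csf1r, Aif1, C1qa, Trem2, Tmem119 and Bin2. They were matched by symbol to their Ensembl identifiers. The other 7 are textbook microglial genes, and Bin2 was chosen by its read counts in the adult cerebellum, which differ between genotypes, so the cerebellar values of the 8 genes are given as a description and without a test. RNA-seq was made from whole brains of E13.5 embryos and from the cerebellum of adult males at 56 days post partum, to ask which genes change when 1 copy of Wiz is lost. Wiz +/+ (WT) animals were compared with Wiz MommeD30/+ (Het) animals, which carry 1 null allele from an ENU screen, in every cell from conception. All animals were FVB and shared the same homozygous GFP transgene. There were 3 WT and 3 Het male embryos, 2 WT and 2 Het female embryos, and 3 WT and 3 Het adult cerebellums. Wiz itself was lower in the Het samples of each set, with means of 190 and 122 CPM (a gene's reads scaled to a common library total) in the male brains and of 95.4 and 67.3 CPM in the cerebellums.

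Microglia are the resident macrophages of the brain. They come from yolk sac progenitors that enter the neural tube early in gestation, then multiply, spread and take on the branched, surveying form of the adult. Csf1r, the receptor for the survival factors Csf1 and Il34, and Cx3cr1, the receptor for the neuronal chemokine Cx3cl1, are on from the start. P2ry12, a purine receptor that steers processes toward ATP, and Tmem119 are markers of the mature homeostatic state. C1qa encodes a chain of the complement starter C1q, Trem2 is a lipid-sensing receptor that signals through Tyrobp, and Aif1 encodes the actin-bundling protein Iba1. Bin2 belongs to the family of proteins with a BAR domain, which bend membranes, and it is made by blood cells as well as by microglia.

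The RNA came from whole tissue, in which microglia are a small minority. Total counts were 28365687 to 30856484 in the cerebellums and 34185084 to 50459755 in the E13.5 brains, except the second WT male brain with 16386029. The 8 genes together had 63.7 to 70.1 CPM in the cerebellums and 50.6 to 65.5 CPM in the brains, and all 8 passed the filter on low counts in every comparison. In a bulk sample, fewer microglia and less of a transcript in each microglial cell cannot be told apart. The embryonic globin Hbb-y was at 428 to 896 CPM in the E13.5 brains and had no count in any cerebellum, where 3 counts would be at most 0.106 CPM.

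**Figure D1:**
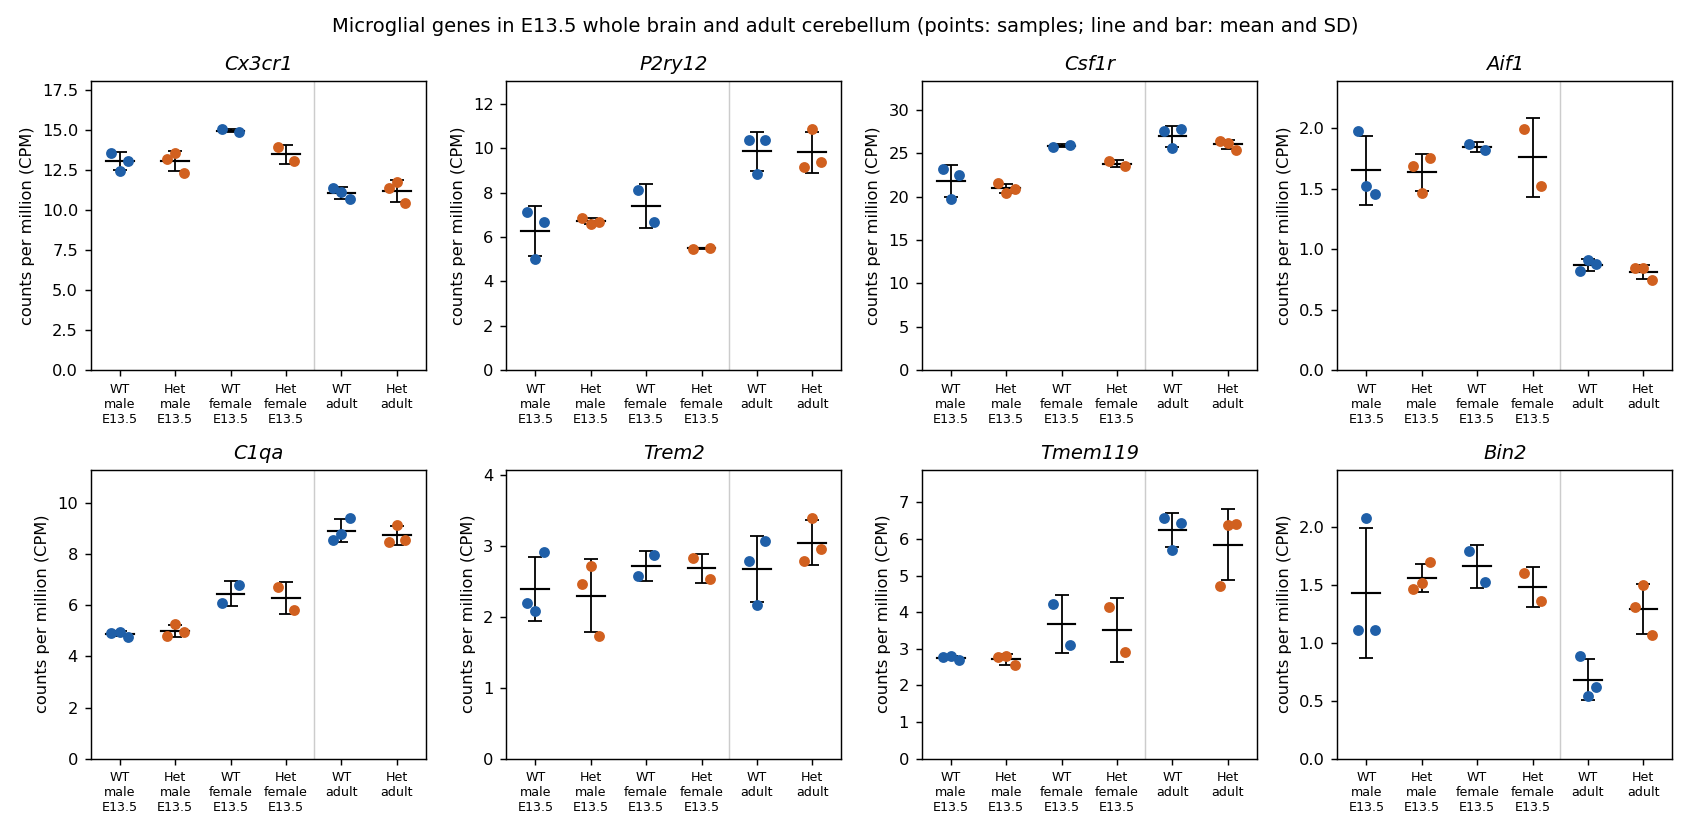
Level of each microglial gene in CPM (y axis, from 0) in the 6 groups (x axis), with WT samples in blue and Het samples in orange. Points are samples and black lines are the mean with its SD, and the Het cerebellums stand above the WT cerebellums for Bin2 at 1.07 to 1.49 against 0.540 to 0.883 CPM, while for the other 7 genes the cerebellums of both genotypes overlap.

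Per kilobase of exon, C1qa was the most abundant of the 8 and Bin2 one of the least. In RPKM, which is CPM divided by exonic length in kilobases, the E13.5 brains ran from 4.59 to 6.53 for C1qa, from 3.41 to 4.50 for Csf1r and from 2.74 to 3.34 for Cx3cr1. P2ry12 at 1.97 to 3.18, Tmem119 at 1.10 to 1.83 and Aif1 at 0.949 to 1.302 RPKM came next, followed by Bin2 at 0.437 to 0.820 and Trem2 at 0.349 to 0.588 RPKM. The ranges of neighbours in that order overlapped for Cx3cr1 and P2ry12, for Tmem119 and Aif1, and for Bin2 and Trem2. The exonic length is that of all annotated exons merged, 4946 bases for Trem2 and 2530 for Bin2, so the order depends on it. In the cerebellums the order was C1qa at 8.17 to 9.06, Csf1r at 4.39 to 4.81 and P2ry12 at 3.47 to 4.27 RPKM. Tmem119 at 2.04 to 2.84 overlapped Cx3cr1 at 2.32 to 2.61 RPKM, and Trem2 at 0.437 to 0.686, Aif1 at 0.487 to 0.595 and Bin2 at 0.213 to 0.590 RPKM overlapped one another. C1qa and Csf1r were thus first and second in both tissues, and P2ry12 stood above Cx3cr1 in the cerebellum but not in the E13.5 brain. About 873 bases of the exons of Csf1r overlap exons of Hmgxb3 on the other strand, and whether reads were counted by strand is not given in the sources used here.

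Bin2 (ENSMUSG00000098112, chr15:100641077-100669553 on the minus strand of GRCm38, protein coding) was the member that separated the genotypes in the adult cerebellum. The 3 WT cerebellums had 0.883, 0.540 and 0.620 CPM, from 27, 16 and 19 reads. The 3 Het cerebellums had 1.304, 1.49 and 1.07 CPM, from 37, 44 and 33 reads. Every Het value lay above every WT value, and the means were 0.681 ± 0.180 and 1.29 ± 0.212 CPM (SD, n = 3 each). These small counts are imprecise one by one: the exact 95% Poisson interval of the highest WT sample, 0.582 to 1.29 CPM, overlaps that of the lowest Het sample, 0.736 to 1.502 CPM. Such intervals cover counting error only. The fitted log2 fold change was 0.91 ± 0.24 (SE), or 1.88-fold. It lay between 0.78 without the second WT cerebellum and 1.14 without the first.

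A gene was called when its adjusted p was at most 0.05 and its fold change was below 0.7 or above 1.3. Since the cerebellar difference chose Bin2, its place among the called genes is no finding: 1 of the 8 genes was called there, where 0.832% of all 15979 tested genes were (0.532% called higher), and 1 of 8 did not overlap between genotypes, where 24.3% of all genes did not. The other 7 genes had log2 fold changes between −0.10 and 0.19. Trem2 had the largest of these, with WT cerebellums at 2.78, 2.16 and 3.07 CPM and Het cerebellums at 2.79, 3.39 and 2.95 CPM, which overlap, and a log2 fold change of 0.19 ± 0.15. Cx3cr1 was at 11.1 ± 0.364 CPM in WT and 11.2 ± 0.675 CPM in Het cerebellums (SD, n = 3 each). Csf1r was at 27.0 ± 1.21 and 26.0 ± 0.572 CPM, and P2ry12 at 9.86 ± 0.881 and 9.81 ± 0.918 CPM. The approximate 95% intervals of the log2 fold changes were −0.12 to 0.16 for Cx3cr1, −0.18 to 0.16 for P2ry12 and −0.15 to 0.04 for Csf1r.

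**Figure D2:**
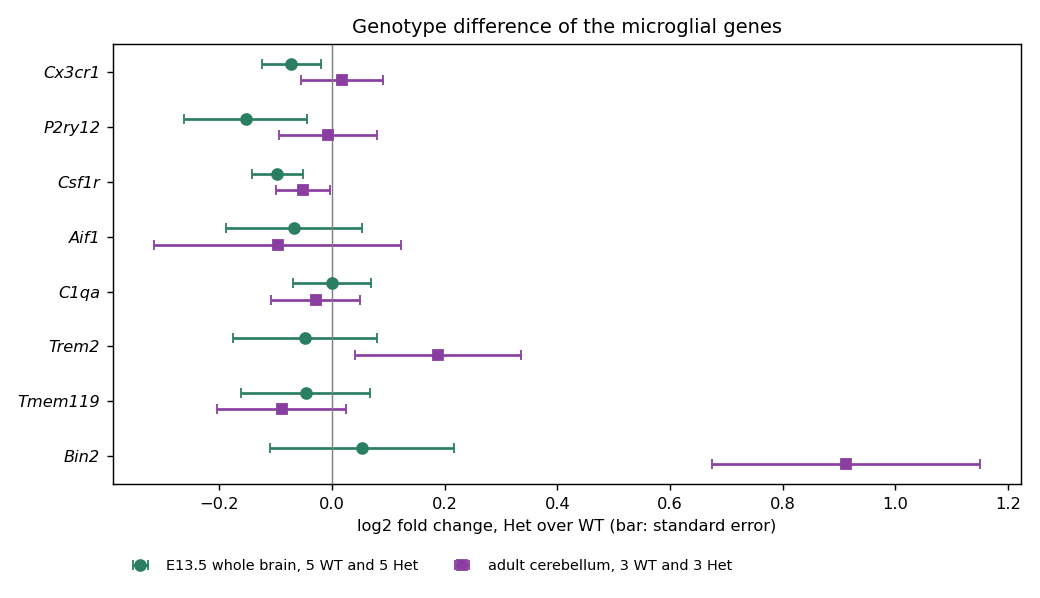
Log2 fold change of Het over WT (x axis) for the 8 genes (y axis) in E13.5 whole brain of both sexes (green circles) and adult cerebellum (purple squares), with bars for the standard error. Bin2 stands at 0.91 in the cerebellum and 0.05 in the E13.5 brain, and the other values lie between −0.15 and 0.19.

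No other cerebellar gene of the microglial lists was called higher with Bin2. Of the 63 genes in the 4 microglial lists (homeostatic genes, complement and immune receptor signalling, lineage factors and ligands, and genes of embryonic and proliferative region-associated microglia), 58 were tested, none was called higher and 1 was called lower. Their median log2 fold change was −0.05, beside −0.003 over all tested genes. The gene called lower was Spp1, which encodes the secreted phosphoprotein osteopontin. It had 20.4, 11.8 and 21.6 CPM in the WT and 11.5, 14.2 and 10.5 CPM in the Het cerebellums, which overlap, with a log2 fold change of −0.58 ± 0.16 (edgeR quasi-likelihood test, Benjamini-Hochberg adjusted p = 0.0401). That call was lost without WT cerebellum 1 or 3 (adjusted p = 0.172 and 0.229), without Het cerebellum 1 or 3 (0.164 and 0.131) and in DESeq2's Wald test (0.323).

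Among the ligands and lineage factors, 9 of 10 tested genes had fold changes below 0 and none was called. The neuronal chemokine Cx3cl1, the ligand of Cx3cr1, was at 70.9 ± 3.13 CPM in WT and 64.3 ± 2.57 CPM in Het cerebellums (log2 fold change −0.14 ± 0.04, adjusted p = 0.0549). Cebpa, a myeloid transcription factor, had a log2 fold change of −0.32 ± 0.11 (adjusted p = 0.110). In the homeostatic list, the transcription factor Sall1 had −0.25 ± 0.09 (adjusted p = 0.105) and the selectin ligand gene Selplg −0.21 ± 0.09 (adjusted p = 0.184). In the complement and receptor list, the integrin gene Itgb2 had 0.41 ± 0.20 (adjusted p = 0.252) and the Toll-like receptor chaperone gene Unc93b1 −0.24 ± 0.11 (adjusted p = 0.244). The inflammatory list could be tested for 3 of its 12 genes, and none was called. None of the 9 border macrophage genes was called, and the scavenger receptor gene Cd163 had the smallest p, with a log2 fold change of 0.53 ± 0.18 (adjusted p = 0.0916). The relatives of Bin2 with a BAR domain, Bin1, Bin3 and Amph, had fold changes between −0.05 and 0.01 and none was called.

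Several red cell genes were higher in the Het cerebellums. Of the 10 erythroid genes, 6 were tested in the cerebellum and 4 were called higher in the Het samples. Of all 15979 tested genes, 0.532% were called higher. Alas2, the erythroid enzyme of haem synthesis, rose by 1.08 ± 0.18 on the log2 scale (adjusted p = 0.00325), with 6.77, 7.02 and 8.58 CPM in WT and 11.9, 22.8 and 12.7 CPM in Het cerebellums. The adult globin genes Hbb-bs, Hba-a1 and Hba-a2 rose by 0.86 ± 0.17, 0.78 ± 0.17 and 0.87 ± 0.23 (adjusted p = 0.00769, 0.0129 and 0.0374). Hba-a1 and Hba-a2 are near-identical copies, so how reads were split between them is uncertain. DESeq2's Wald test did not call Hbb-bs (adjusted p = 0.141) or Hba-a1 (0.206) and gave no adjusted p for Hba-a2, which also lost its call without any single cerebellum (0.0546 to 0.153).

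The summed adult globins were at 138, 198 and 219 CPM in the WT and at 254, 458 and 267 CPM in the Het cerebellums. The second Het sample was highest for both the globins and Bin2. Within each genotype the orders differed: the first WT sample had the lowest globins and the highest Bin2 of its group, and the third WT sample, at 219 CPM of globin and 0.620 CPM of Bin2, stood beside the first Het sample at 254 and 1.304 CPM. In blood leukocytes, 3 of 16 marker genes were tested and none was called, and the list summed to 2.50 to 2.90 CPM in WT and 3.18 to 4.07 CPM in Het cerebellums, with the mast cell genes Mcpt4 and Cpa3 at 0 in all 6. Of the untested markers, S100a8, S100a9 and Ccr2 did not overlap between genotypes, with Het higher, and the rest of the 16 overlapped. Their means were 0.0334 and 0.250, 0.155 and 0.327, and 0.231 and 0.348 CPM. Of all tested genes, 24.3% did not overlap. The platelet list summed to 6.12 to 7.60 and 6.59 to 6.89 CPM, and none of its 3 tested genes was called. The part of blood in the Bin2 difference was not tested.

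**Figure D3:**
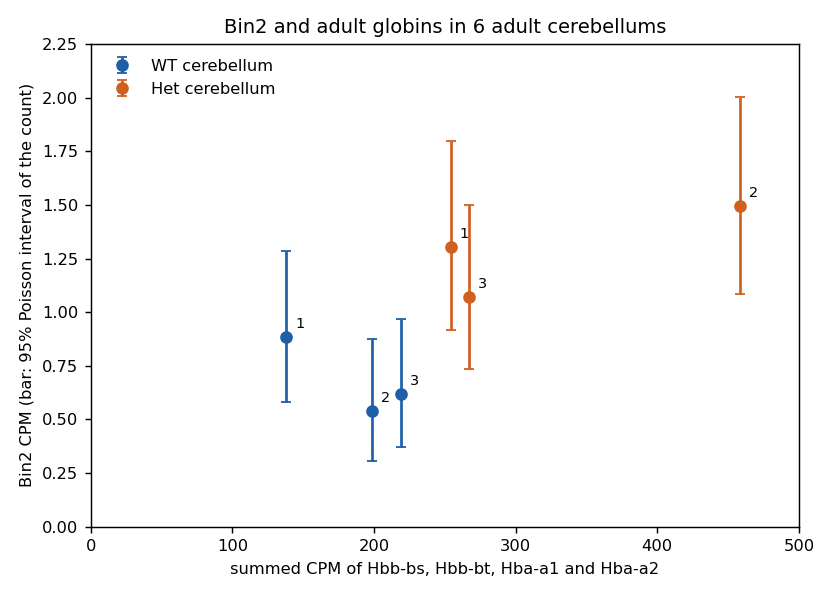
Bin2 (y axis, CPM, with the exact 95% Poisson interval of its count) against the summed adult globins Hbb-bs, Hbb-bt, Hba-a1 and Hba-a2 (x axis, CPM) in the 6 adult cerebellums, numbered by replicate. Het samples (orange) lie above WT samples (blue) on both axes, and among the WT samples the one with 138 CPM of globin has the highest Bin2 at 0.883 CPM.

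In the E13.5 brain, loss of 1 copy of Wiz came with no called change in any of the 8 genes. Over both sexes, with sex as a covariate, 0 of 8 were called, where 0.346% of 17620 tested genes were. The same held in males alone (0 of 8, against 0.184%) and in females alone (0 of 8, against 0.111%). At an unadjusted p under 0.05, 1 of the 8 genes stood out over both sexes, 0 in males and 1 in females, where 11.8%, 8.45% and 6.4% of all genes did. DESeq2's Wald test called 0 in each of the 3 comparisons. The genotypes did not overlap for 0 of 8 genes over both sexes (1.66% of all genes) and 0 of 8 in males (12.3%), and for Cx3cr1, P2ry12 and Csf1r, or 3 of 8, in females, where 2 are compared with 2 (36.5%).

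Bin2 was at 1.11, 2.07 and 1.11 CPM in the WT male brains and at 1.46, 1.51 and 1.70 CPM in the Het male brains. The female WT brains had 1.79 and 1.52 CPM and the female Het brains 1.60 and 1.36 CPM. The genotypes overlap in both sexes, and the value of 2.07 CPM comes from 34 reads in the smallest library. The log2 fold change was 0.26 ± 0.22 in males, −0.17 ± 0.20 in females and 0.05 ± 0.16 over both (adjusted p = 0.932). The approximate 95% interval over both sexes was −0.27 to 0.37. Whether the effect of genotype on Bin2 differs between the tissues was not tested, because the cerebellar value chose the gene.

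The other 7 genes had log2 fold changes of −0.15 to 0.00 over both sexes, all below 0, though that of C1qa rounds to 0 and those of Aif1, C1qa, Trem2 and Tmem119 changed sign when single brains were left out. Csf1r had the smallest p, with 23.4 ± 2.57 CPM in WT and 22.1 ± 1.63 CPM in Het brains (SD, n = 5 each), a log2 fold change of −0.10 ± 0.04, an unadjusted p of 0.0490 and an adjusted p of 0.420 in edgeR. P2ry12 had 8.11 and 6.68 CPM in the female WT brains against 5.46 and 5.51 CPM in the female Het brains, which do not overlap. Its log2 fold change there was −0.44 ± 0.14 (unadjusted p = 0.0152, adjusted p = 0.773). The male brains gave no such separation, with 7.13, 5.004 and 6.66 CPM in WT and 6.85, 6.59 and 6.67 CPM in Het samples.

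None of the 60 tested genes of the 4 microglial lists was called at E13.5 over both sexes. An unadjusted p under 0.05 in edgeR was reached by 5 of the 60, where 11.8% of all 17620 tested genes reached it. Among the 5 were Slc2a5, Laptm5, Apoe and Lyz2. The fructose transporter gene Slc2a5 had a log2 fold change of 0.35 ± 0.13 (adjusted p = 0.325), with 2.30 ± 0.382 CPM in WT and 2.93 ± 0.390 CPM in Het brains. The lipid carrier Apoe had −0.15 ± 0.05 (adjusted p = 0.234), the lysosomal gene Laptm5 −0.14 ± 0.05 (0.343) and the lysozyme gene Lyz2 0.25 ± 0.09 (0.298). All 10 lineage factors and ligands had fold changes below 0, with a median of −0.17 beside −0.001 over all genes, and none was called. The list median for complement and receptor genes was −0.06, and for homeostatic genes −0.01.

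The 4 leukocyte genes with the smallest p, all neutrophil genes, stood higher on average in the Het brains at E13.5, without being called. The neutrophil granule gene Ltf was at 0.122 ± 0.0992 CPM in WT and 0.647 ± 0.302 CPM in Het brains (log2 fold change 2.24 ± 0.47, adjusted p = 0.0609), and S100a8, S100a9 and Ngp had 1.57 ± 0.38, 1.55 ± 0.39 and 1.56 ± 0.53 (adjusted p = 0.119, 0.139 and 0.271). None of the 8 tested leukocyte genes was called over both sexes, and the genotypes overlap for each of these 4. Fold changes were above 0 for 6 of the 8 and below 0 for 2. Another neutrophil gene, Mpo, was at 0.119, 0.244 and 0.524 CPM in WT and 0.0744, 0.0733 and 0.146 CPM in Het male brains. In females it was at 0.0842 and 0.0682 CPM in WT and 0.197 and 0.237 CPM in Het brains. DESeq2's Wald test called Ltf, S100a8 and S100a9 (adjusted p = 0.00424, 0.0463 and 0.0392), as did the edgeR test without the low-count filter. The erythroid list had 0 of 10 called, so the higher adult globins of the Het cerebellums were not seen as a call here. Fold changes of the erythroid list were above 0 for 8 of 10 genes in males and below 0 for 8 of 10 in females. Over both sexes 7 of 10 were below 0.

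The clearest contrast among the 8 genes was between the tissues. In WT males, Tmem119, C1qa, P2ry12 and Csf1r were higher in the adult cerebellum than in the E13.5 brain and Aif1 was lower, while Cx3cr1 and Trem2 did not pass the test. This compares an adult hindbrain structure with a whole embryonic brain, so age, region and the share of microglia cannot be told apart. Most genes of the genome differ as well: 5 of the 7 testable members were called in WT males, where 69.3% of 16840 tested genes were (36.4% higher and 32.9% lower), and 6 of 7 in Het males, where 68.8% of 16967 were (35.8% higher and 33% lower). Those counts are near the background, and only the direction and size of each gene's difference is described here.

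Tmem119 had 2.77, 2.81 and 2.71 CPM in the WT male E13.5 brains and 6.58, 5.71 and 6.42 CPM in the WT cerebellums. All adult values were more than 2 times the embryonic ones. Its log2 fold change was 1.39 ± 0.11 (adjusted p = 1.16e-08), and in Het males it was 1.33 ± 0.13 (adjusted p = 3.23e-07). C1qa had 4.93, 4.94 and 4.77 CPM in the embryonic and 8.54, 8.81 and 9.42 CPM in the adult WT samples, a log2 fold change of 1.08 ± 0.09 (adjusted p = 1.96e-08), beside 1.02 ± 0.09 in Het males (adjusted p = 5.05e-08). Tmem119 and C1qa thus had the largest rises of the 8, with fitted folds of 2.62 and 2.12 in WT males. The rise of C1qa was not shared by the related complement genes C1qb and C1qc, whose levels overlap between the tissues in WT males. C1qb had means of 4.93 ± 0.294 CPM in the WT male brains and 5.24 ± 0.49 CPM in the WT cerebellums (SD). For C1qc these were 4.83 ± 0.389 and 4.98 ± 0.173 CPM. The fits used TMM scaling, while CPM values are scaled by total counts and show smaller rises. In WT males, scaling by total counts moved the median log2 fold change of all tested genes from −0.02 to −0.23.

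P2ry12 had 7.13, 5.004 and 6.66 CPM in the WT E13.5 male brains and 10.4, 8.84 and 10.4 CPM in the WT cerebellums, which do not overlap (log2 fold change 0.81 ± 0.11, adjusted p = 7.89e-06). In Het males it was 0.77 ± 0.08 (adjusted p = 1.04e-06). Csf1r was higher by less, with log2 fold changes of 0.50 ± 0.07 in WT and 0.53 ± 0.05 in Het males (adjusted p = 4.91e-06 and 1.02e-07). Scaled by total counts alone it was 0.29 and 0.31, under the fold limit in both genotypes. Trem2 had 0.35 ± 0.17 in WT males (adjusted p = 0.0653) and 0.61 ± 0.16 in Het males (adjusted p = 0.00301), and whether these differ was not tested. Its levels overlap in WT males, at 2.1998, 2.07 and 2.91 CPM in the embryonic and 2.78, 2.16 and 3.07 CPM in the adult samples.

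Aif1 went the other way. It had 1.98, 1.53 and 1.45 CPM in the WT male E13.5 brains and 0.818, 0.911 and 0.880 CPM in the WT cerebellums, with a log2 fold change of −0.76 ± 0.20 (adjusted p = 0.00252). In Het males it was −0.78 ± 0.18 (adjusted p = 0.001). Cx3cr1 had log2 fold changes of −0.04 ± 0.07 in WT and 0.00 ± 0.07 in Het males (adjusted p = 0.617 and 0.978). With libraries scaled by total counts alone these were −0.25 and −0.22 (adjusted p = 0.00439 and 0.00906, under the fold limit), a scaling that moved the median of all genes from −0.02 to −0.23 and −0.24, so Cx3cr1 stayed near that median in both. Bin2, whose cerebellar values chose it, is only described: log2 fold changes of −0.71 ± 0.28 in WT and −0.05 ± 0.17 in Het males, with WT cerebellums below every WT male brain and Het cerebellums overlapping the Het male brains.

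**Figure D4:**
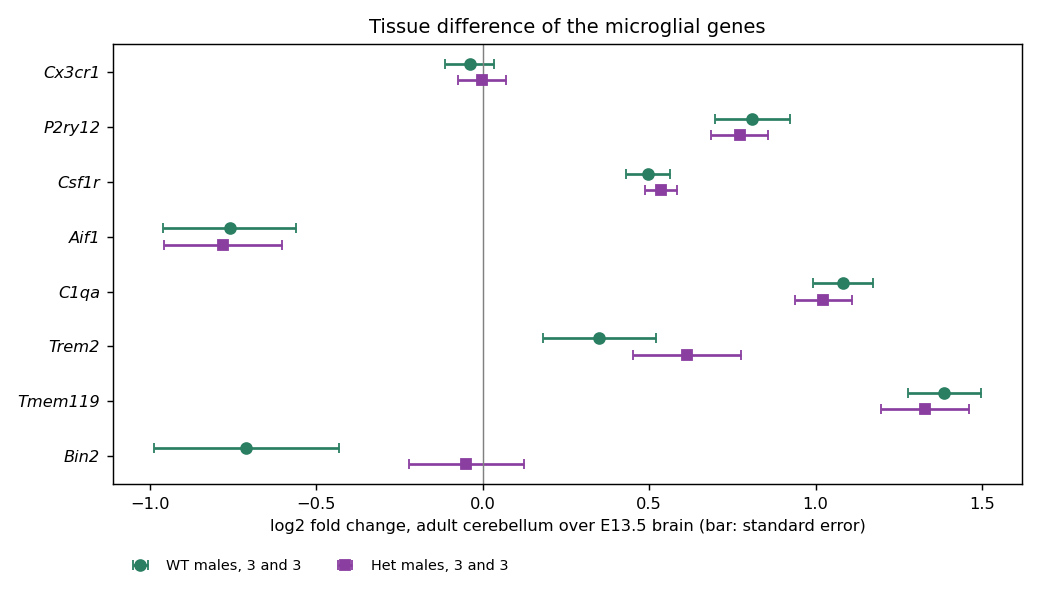
Log2 fold change of adult cerebellum over E13.5 brain (x axis) for the 8 genes (y axis) in WT males (green circles) and Het males (purple squares), with bars for the standard error. Tmem119, C1qa, P2ry12, Trem2 and Csf1r lie to the right of 0, Aif1 to the left, Cx3cr1 close to 0, and Bin2 at −0.71 in WT and −0.05 in Het males.

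The tissues can also be compared without any scaling between libraries, by each gene's share of the summed counts of the 8 genes. The shares do not repeat the fitted fold changes for every gene, as Csf1r and Cx3cr1 show. Csf1r took 37.4 to 40.6% in the 6 cerebellums and 37.6 to 41.8% in the 10 E13.5 brains, overlapping ranges. Cx3cr1 took 15.4 to 17.5% in cerebellum and 22.9 to 24.97% in brain, and Aif1 1.15 to 1.43% and 2.63 to 3.48%, with every cerebellum below every brain. Tmem119 took 7.25 to 9.88% in cerebellum and 4.84 to 6.81% in brain, C1qa 12.4 to 13.8% and 8.64 to 11.1%, and P2ry12 13.9 to 15.5% and 8.98 to 12.7%, with every cerebellum above every brain. Trem2 overlapped, at 3.39 to 4.84% and 3.28 to 5.27%. Bin2 took 0.848 to 2.13% in cerebellum and 1.95 to 4.10% in brain. A share falls when another rises, so these shares are not independent of each other.

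**Figure D5:**
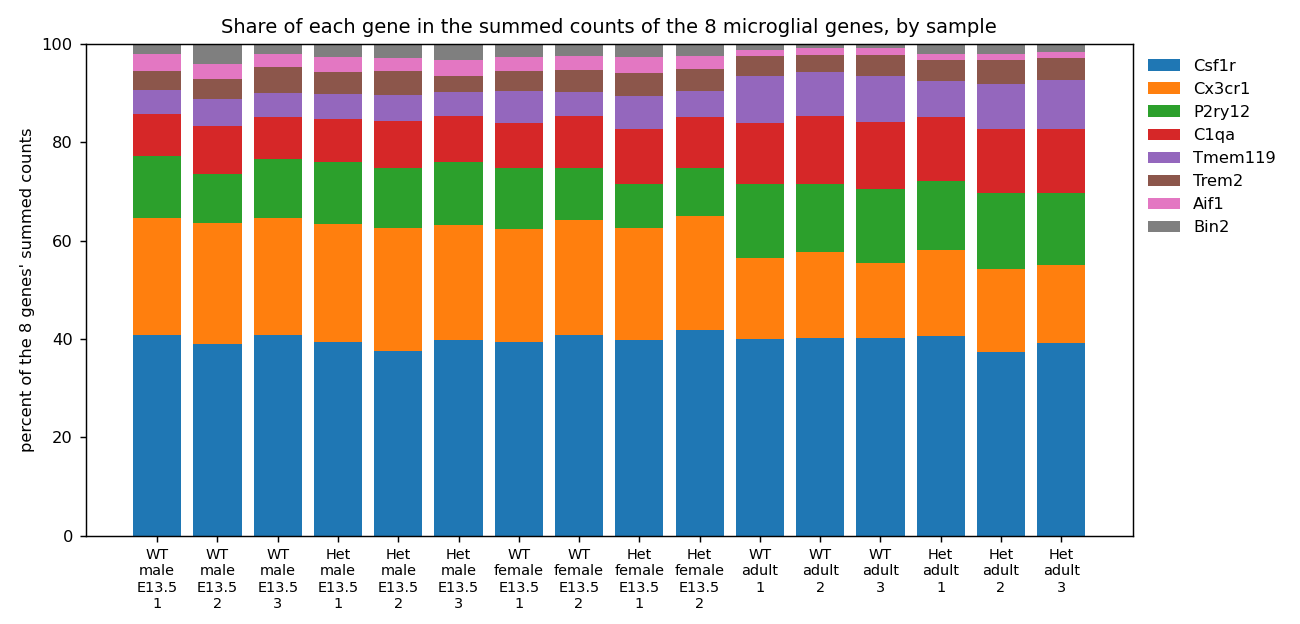
Share of each microglial gene in the summed counts of the 8 genes (y axis, percent) in each sample (x axis, with group and replicate number). The Csf1r shares of both tissues overlap, while the Cx3cr1 and Aif1 shares are lower and the Tmem119, C1qa and P2ry12 shares higher in each of the 6 cerebellums than in any of the 10 E13.5 brains.

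To show the start regions of genes that moved apart between the tissues, 2 are printed from RefSeq (GRCm38.p6, the C57BL/6J reference, whereas the mice were FVB). Promoter entries were found for 4 of the 8 genes: Cx3cr1, P2ry12, Aif1 and Trem2. The 250 bases before each start were searched on both strands for GAGGAAGT and GGAAGT, letters bound by the myeloid factor PU.1 (the second lies within the first), and AGGGGGC, letters of the CTCF motif. Only P2ry12 had a match, 1 GGAAGT on the sense strand that starts 51 bases before the RefSeq start, and it is in capitals here. Of 32851 promoters of that length, 19.7% held GGAAGT, 2.44% GAGGAAGT and 9.43% AGGGGGC. The P2ry12 stretch is at chr3:59263018-59263047 on the minus strand, outside the GENCODE gene P2ry12 and within Med12l on the other strand. The Aif1 stretch is at chr17:35176069-35176302 on the minus strand, directly upstream of the GENCODE gene, and the GC content of the 250 bases is 43.6%.
P2ry12: gctaacaagaaGGAAGTtccccagtgacac
Aif1: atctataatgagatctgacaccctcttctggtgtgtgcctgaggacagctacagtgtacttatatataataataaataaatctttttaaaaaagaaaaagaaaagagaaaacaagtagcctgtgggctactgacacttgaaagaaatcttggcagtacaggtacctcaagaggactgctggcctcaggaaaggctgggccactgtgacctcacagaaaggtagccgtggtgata

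The other microglial genes went both ways between the tissues, as all tested genes did. Beside the counts of this list and those that follow, 36.4% of all 16840 tested genes were called higher and 32.9% lower in WT males. In Het males these shares were 35.8% and 33%. Of the 14 tested homeostatic genes, 9 were called higher and 5 lower in the WT cerebellum. Their median log2 fold change was 0.77 beside −0.02 over all tested genes. Selplg rose by 3.70 ± 0.14 (adjusted p = 9.73e-13), from 0.739 ± 0.111 to 8.37 ± 0.358 CPM (SD, n = 3 each). Cd83, a gene of activated immune cells, rose by 1.15 ± 0.08. Sall1 was lower in the cerebellum by 3.13 on the log2 scale (SE 0.06), from 102 ± 3.19 to 10.04 ± 1.02 CPM, and it is also made by neural progenitors of the embryo. Fcrls was lower too, at 4.48, 3.97 and 4.31 CPM in the WT male brains and 0.851, 1.05 and 0.750 CPM in the WT cerebellums. For Slc2a5, Lag3 and Cd33 every WT cerebellum also lay below every WT male brain. In Het males, 8 of the 14 were called higher and 4 lower.

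The complement and receptor list held 6 genes called higher, 5 called lower and 13 not called in WT males, with a median of 0.11. The lysosomal protease Ctss rose by 1.90 ± 0.07, from 5.25 ± 0.158 to 17.1 ± 0.205 CPM, and the complement receptor chain Itgam by 1.68 ± 0.13. The kinase Syk, which acts after Trem2 and Tyrobp, had a log2 fold change of −2.11 ± 0.13, and the complement receptor C3ar1 −1.70 ± 0.19. The counts of called genes were the same in Het males.

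Of the 10 lineage factors and ligands, 4 were called higher and 3 lower in each genotype. Both ligands of Csf1r were higher in the WT cerebellum: Il34, a neuronal cytokine, by 3.26 ± 0.14 (adjusted p = 5.70e-12) and Csf1 by 0.93 ± 0.06 (adjusted p = 1.90e-09). Cx3cl1 rose by 2.20 ± 0.07, from 17.9 ± 1.94 to 70.9 ± 3.13 CPM, while its receptor Cx3cr1 did not pass the test. These genes are also expressed outside microglia, Il34 and Cx3cl1 mainly by neurons.

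The list of embryonic and proliferative region-associated microglia did not move as a whole. Of its 12 tested genes, 6 were called higher and 5 lower in each genotype, with a median of 0.08 in WT and −0.05 in Het males. Apoe was higher in the cerebellum by 3.91 ± 0.05, at 821 ± 34.5 against 63.6 ± 3.21 CPM, and the tetraspanin gene Cd9 by 1.85 ± 0.07. The fatty acid binding protein gene Fabp5 was lower, with −2.40 ± 0.05, and the lipase gene Lpl with −2.46 ± 0.10. Apoe is also made by astrocytes and Fabp5 by neural progenitors.

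Macrophages of the brain borders share several of these genes. Of the 9 border macrophage markers, 3 were called higher and 5 lower in the WT cerebellum, with a median of −1.80, and their summed level was 20.1 to 23.4 CPM in the cerebellums and 89.7 to 120 CPM in the E13.5 brains. None of the 9 was at 0 throughout a group. The 3 called higher were Cd163, Cbr2 and Cd209f, all low in the embryo. Cd163 had 0.0793, 0.122 and 0.116 CPM in the WT male brains and 1.44, 1.15 and 1.24 CPM in the WT cerebellums. Cbr2 and Cd209f were at 0 to 0.0873 CPM in the WT male brains and 0.457 to 0.978 CPM in the WT cerebellums. The mannose receptor Mrc1 had a log2 fold change of −2.56 ± 0.08 (26.2 ± 1.40 to 3.81 ± 0.367 CPM), the transglutaminase gene F13a1 −2.60 ± 0.12, the scavenger receptor Stab1 −1.80 ± 0.06 and the hyaluronan receptor Lyve1 −2.27 ± 0.14. The part of border macrophages in the higher embryonic level of Aif1 was not tested. Of the inflammatory genes, only 4 of the 12 could be tested, with 1 called higher and 2 lower in WT males. In Het males 0 were called higher and 3 lower. Nos2 had −2.53 ± 0.29 and the costimulatory ligand Cd86 −1.15 ± 0.24 in WT males. Ptgs2 went the other way, from 0.119, 0 and 0.0582 CPM in the WT male brains to 0.360, 0.810 and 0.717 CPM in the WT cerebellums. Bin1 and Amph, the relatives of Bin2 best known from neurons and muscle, were higher in the WT cerebellum by 1.56 ± 0.04 and 2.00 ± 0.05, and Bin3 was lower, with −1.10 ± 0.10.

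The likeness of Bin2 to the other 7 genes depended on the samples taken. Over the 6 cerebellums, Pearson's r of its log2 CPM with them ran from −0.50 for Aif1 to 0.66 for Trem2, and over the 10 E13.5 brains from −0.33 for Trem2 to 0.32 for Tmem119. Over all 16 samples, which differ by tissue, it was 0.62 for Cx3cr1 and 0.60 for Aif1, −0.16 for Trem2, and −0.59 to −0.55 for P2ry12, C1qa, Tmem119 and Csf1r. The genes most like it over the 6 cerebellums were Cybb (r = 0.995), Dmp1 (0.994), Rad9b (0.992), Gimap4 (0.989) and Cygb (0.987). Over the 10 brains they were Tmem199 (0.917), Rph3al (0.904), Tinagl1 (0.883), Slc16a5 (0.871) and 1700065D16Rik (0.869). Over all 16 samples they were Nrros (0.876), Gimap9 (0.852), Rwdd2b (0.850), Igbp1 (0.849) and 4933415A04Rik (0.845). No gene stood in more than 1 of these lists. They are the highest of 15979, 17620 and 15532 genes over few samples that share libraries, depth and genotype, so they describe these samples only.

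The mean log2 CPM of the other 7 genes was likewise matched. Over the 6 cerebellums the most similar genes were Dbhos (r = 0.992), Tpm3 (0.987), Kdelr3 (0.986), Acot2 (0.980) and Rnf111 (0.974), and the r of Bin2 was 0.20. Over the 10 brains they were Prss56 (0.970), Tagln (0.964), Cops9 (0.953), Col26a1 (0.952) and Bcam (0.949), with −0.04 for Bin2. Over all 16 samples they were Serpine2 (0.916), Prss36 (0.901), Col9a2 (0.891), Snap47 (0.889) and Vwf (0.887), with −0.42 for Bin2. No microglial gene of the lists was among these 15.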

How the data were processed

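PolyA RNA of 16 samples was read single-end. The authors mapped reads to mm10 with TopHat2 2.0.11 and counted them with HTSeq 0.6.1, and they deposited raw counts per Ensembl gene. The counting mode is not given in the sources used here. Symbols and positions came from GENCODE M21, which held 40254 of 41388 identifiers. CPM and RPKM were scaled by total counts, RPKM also by exonic length. Genes were filtered by filterByExpr (minimum count 10), scaled by TMM and tested in R 4.3.3 by the quasi-likelihood F test of edgeR 4.0.16, each fit holding only the groups it compares. Adjusted p-values are Benjamini-Hochberg values over all tested genes. TMM factors spanned 0.924 to 1.09 between tissues and 0.996 to 1.01 within them. Errors of fold changes were derived from the F statistic. The fits were tested on simulated counts with 200 changed genes: of log2 changes of 1, 93% were recovered in cerebellum, 87% in the E13.5 brains of both sexes and 78% in females, where 11.6% of calls were false.

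The members, the gene lists and the tests were chosen with earlier results of these data known. Named genes were the members, up to 4 genes of each list with the smallest p, and the 5 most correlated genes (log2 CPM with 0.5 added to counts). A few other genes of the lists are named beside them where they went another way or separated the groups. Groups are those of the labels, and nothing there ties samples to litters, so p-values measure the spread between samples. Replicates differed by more than counting error, as chi-square values of 2.05 to 10.5 for each degree of freedom showed. Sample numbers did not pair samples: residual correlations of same-numbered samples were −0.148 to 0.0120. Alternatives were no fold limit, no filter, DESeq2 1.42.0 size factors and Wald test, a replicate block, embryos of both sexes, and leaving out each sample. Scaling by total counts was chosen after seeing the data. The 3 ChIP samples were not analysed here. Results of some genes that the rule for named genes picks are not reported here.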

Additional observations from a re-analysis of the deposited data

How the results depend on the processing

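No member was called in the 3 E13.5 genotype comparisons under any alternative. In the cerebellum, whose values chose Bin2, the calls of the members are only described and are no test of Bin2. There Bin2, 1 member, was past the thresholds as reported, but 0 members were with DESeq2's Wald test. When single cerebellums were left out, 0 to 1 were (0 without WT sample 2 or 3 or Het sample 1 or 2). Of the 4 microglial lists, 1 gene was called there, 0 with DESeq2's Wald test and 0 to 2 when cerebellums were left out. In the male E13.5 brains 1 gene of these lists was called without the low-count filter, against 0. The tissue counts stayed within 5 to 6 of 7 members in WT males and at 6 of 7 in Het males when samples were left out. With the replicate block, members called were 0 in the E13.5 comparisons, 1 in the cerebellum, and 6 of 7 in each tissue comparison, since Trem2 then passed in WT males (log2 fold change 0.38, adjusted p = 0.0263). Trem2 also passed there without WT male brain 3 (0.0173) or WT cerebellum 2 (0.0177), and was not called under its other alternatives, with adjusted p of 0.0496 to 0.439.

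Among the members, signs changed as follows. For C1qa at E13.5 the log2 fold change was 7.68e-05 without the filter, 0.000376 with DESeq2's size factors and 0.00425 by total counts, and −0.028 to 0.042 when brains were left out. In that comparison Aif1 ranged from −0.14 to 0.022, Trem2 from −0.11 to 0.038, Tmem119 from −0.14 to 0.046 and Bin2 from −0.056 to 0.16. Between tissues Cx3cr1 ranged from −0.064 to 0.0069 in WT and from −0.049 to 0.050 in Het males, and was 0.000716 with the replicate block in Het males. Bin2 in Het males ranged from −0.16 to 0.076 and moved to −0.27 by total counts. In the cerebellum, leaving out samples gave −0.016 to 0.069 for Cx3cr1, −0.084 to 0.041 for P2ry12, −0.062 to 0.011 for C1qa and −0.16 to 0.041 for Tmem119. The causes of these changes were not tested. Depth limits Bin2 and Aif1 most, at 16 to 44 and 23 to 27 reads in the cerebellums.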

Other observations

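The female E13.5 brains held more reads of several microglial genes than the male brains, whatever the genotype. Csf1r was at 23.5 to 26.0 CPM in the 4 female and 19.7 to 23.2 CPM in the 6 male brains, C1qa at 5.83 to 6.79 and 4.77 to 5.28 CPM, and Tmem119 at 2.90 to 4.23 and 2.54 to 2.81 CPM. In 3 of the 8 genes every female value lay above every male value, and in none below, where 4.81% and 3.85% of all 17620 tested genes did so. Of the homeostatic list, 2 of 14 genes (Fcrls and Cd83) showed the same, of the embryonic list 1 of 12 (Dab2), of the complement and receptor list, 4 of 24 (C1qc, Tyrobp, Syk and Laptm5), of the lineage factors 2 of 10 (Spi1 and Tgfb1) and of the border macrophage markers 1 of 7 (Stab1). The erythroid list had 5 of 10, among them the embryonic globins Hbb-y, Hbb-bh1 and Hba-x. In the other direction, every female value lay below every male value for 1 lineage factor, Mef2c, at 27.9 to 33.1 and 34.1 to 50.9 CPM. Sex, litter and library batch cannot be told apart here, and no test was made.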
